A study of Mus musculus with 15 samples.

Results

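Interferon-stimulated genes are switched on by interferons, the cytokines released when a cell senses viral or misplaced nucleic acid. The genes described here are 35 of the 55487 genes in the deposited count table of a mouse forebrain study, taken by their symbols from a list of commonly induced members and ordered below by what their proteins do. The list was drawn up with earlier results of these data in view. Wild-type mice gave the frozen forebrain, whose RNA was read in 15 libraries (5 groups of 3) of a series whose title concerns monocyte-derived macrophages that engraft in the brain. The groups were brains treated with what the labels call PLX 1x (PLX1X), brains titled PLX 3x (PLX3X_CD0), brains titled only as PLX treated whose library names carry PLX3X and CD30 (PLX3X_CD30), brains labelled IR-BMT (IR_BMT) and untreated brains (NT). What PLX, CD0, CD30 and IR-BMT stand for is not written out in the labels, nor are age and sex. Whether each library is a different animal is not stated either, so each p-value reflects only library-to-library spread, which may be technical.

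Type I interferons bind the receptor chains IFNAR1 and IFNAR2, whose kinases JAK1 and TYK2 phosphorylate STAT proteins, STAT2 among them. Phosphorylated STAT2 acts with IRF9 in the complex ISGF3, which binds interferon-stimulated response elements (ISRE) in the promoters of the responding genes. In the brain, low tonic signalling of this kind is known in many cell types, and microglia, the resident macrophages, are among the cells that sense nucleic acid.

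Levels are given as CPM, that is counts per library total with TMM scaling, in the order of replicates 1, 2 and 3. Each log2 fold change is given with its standard error (SE) from a quasi-likelihood fit in edgeR to all 15 libraries, with p-values adjusted over the 21780 genes tested by the Benjamini-Hochberg method and a threshold of 0.05. All 35 members passed the filter on low counts. Library totals ran from 19249641 counts in NT replicate 1 to 54801136 in PLX3X_CD0 replicate 3. Because 14 of the 35 members overlap another annotated gene (Irf7 with Phrf1, Irf9 with Rnf31, Rtp4 with Masp1, Parp9 with Dtx3l, and Eif2ak2, Parp14, Gbp7, Trim30a and Ifi35 with predicted or small RNA genes among them) and the library kit does not mark strand, reads of such neighbours cannot be told apart. Ifit3 and Ifit3b, Oas1a and Oas1b, the Gbp genes, and Trim30a with its relative Trim30d are close copies, and their separate counts are uncertain. In bulk tissue, fewer cells of a type and less RNA per cell cannot be told apart.

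A promoter window from 250 bases before to 50 bases after the transcript start was held for 26 of the 35 members in RefSeq (GRCm38.p6). The ISRE core, searched on both strands as GAAANNGAA, stood in the windows of 18 of these 26 genes (69.2%), against 2638 of 27025 genes with a window (9.76%). The gamma-activated site, searched on both strands as TTCNNNGAA, stood in 7 of the 26 (26.9%) and in 9.55% of all genes. Irf7, Irf9, Oasl2, Xaf1, Sp100, Lgals3bp, Ifi35 and Ifit2 held no match to the ISRE core in these windows. Windows were not held for Parp9, Parp14, Rtp4, Dhx58, Zbp1, Oas1b, Oas2, Usp18 and Ifi27.

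The 5 windows below were picked among genes named in the results whose windows held a match to the ISRE core. Isg15 and Ifit3 stood far apart in single libraries, Stat2 was the member called higher, and Eif2ak2 and Trim30a were called lower. Irf7, Ifi35 and Ifit2 also feature in the results but held no match, and their windows are not shown. The 5 are therefore no sample of the genes with results. Each is written 5′ to 3′ along the strand of its gene, with matches to the ISRE core in capitals, joined where they overlap. A match on the opposite strand reads as the reverse complement of the core.
Isg15 chr4:156200769-156201068 (-): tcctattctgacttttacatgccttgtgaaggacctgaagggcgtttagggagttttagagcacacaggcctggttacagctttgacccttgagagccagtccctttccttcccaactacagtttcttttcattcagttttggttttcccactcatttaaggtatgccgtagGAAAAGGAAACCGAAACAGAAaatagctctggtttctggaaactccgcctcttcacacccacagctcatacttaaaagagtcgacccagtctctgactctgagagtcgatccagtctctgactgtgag
Ifit3 chr19:34583279-34583578 (+): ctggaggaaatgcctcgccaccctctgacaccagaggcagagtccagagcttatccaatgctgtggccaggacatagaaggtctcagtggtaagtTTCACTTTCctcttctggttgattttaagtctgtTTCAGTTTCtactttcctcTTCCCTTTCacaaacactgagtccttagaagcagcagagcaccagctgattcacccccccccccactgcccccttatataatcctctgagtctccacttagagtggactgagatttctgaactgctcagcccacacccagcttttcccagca
Stat2 chr10:128270248-128270547 (+): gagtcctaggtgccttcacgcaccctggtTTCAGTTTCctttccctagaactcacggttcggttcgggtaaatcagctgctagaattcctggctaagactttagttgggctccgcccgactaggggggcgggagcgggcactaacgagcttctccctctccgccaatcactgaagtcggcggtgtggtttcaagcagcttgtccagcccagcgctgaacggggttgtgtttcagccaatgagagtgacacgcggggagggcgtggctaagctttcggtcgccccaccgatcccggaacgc
Eif2ak2 chr17:78882523-78882822 (-): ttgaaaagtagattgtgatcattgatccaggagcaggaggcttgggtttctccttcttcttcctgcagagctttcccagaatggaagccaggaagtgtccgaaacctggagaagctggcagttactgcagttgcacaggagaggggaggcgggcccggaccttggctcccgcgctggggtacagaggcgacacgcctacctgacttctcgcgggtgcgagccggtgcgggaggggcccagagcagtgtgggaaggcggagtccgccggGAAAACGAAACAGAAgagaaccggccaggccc
Trim30a chr7:104465144-104465443 (-): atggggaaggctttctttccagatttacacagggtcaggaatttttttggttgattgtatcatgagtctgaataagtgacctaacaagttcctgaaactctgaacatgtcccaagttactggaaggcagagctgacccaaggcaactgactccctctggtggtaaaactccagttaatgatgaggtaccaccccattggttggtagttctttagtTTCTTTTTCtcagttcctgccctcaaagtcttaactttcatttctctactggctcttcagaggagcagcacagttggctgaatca
Isg15 held 3 overlapping matches, from base -78 to base -66 relative to the transcript start by their first letters. Ifit3 held 3 separate matches, the first at -155 and the last at -102. Eif2ak2 held 2 overlapping matches after its start, at 18 and 24. Stat2 held 1 match at -221 and Trim30a 1 at -35.

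Before any comparison, 2 libraries stood apart in these genes. NT replicate 2 was the highest NT library in 33 of 35 members, against 30.1% of all genes, and the highest of all 15 libraries in 30 of 35, against 8% of all genes. Its median log2 difference from the other NT libraries was 0.94 over the members and 0.01 over all genes. Of the members, 16 of 35 stood more than 2-fold above the mean of NT replicates 1 and 3, counted as log2 CPM over the mean log2 CPM, as did 2.99% of all genes tested. The members outside this pattern were Dhx58 and Rsad2, both highest in NT replicate 3. PLX3X_CD0 replicate 2 showed the same kind of separation to a smaller extent: it was highest in its group in 30 of 35 members (36.8% of all genes), and 8 of 35 members stood more than 2-fold above the other PLX3X_CD0 libraries by the same log2 measure, against 2.78% of all genes tested.

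Irf7, the transcription factor that amplifies the interferon response (ENSMUSG00000025498, chromosome 7, 141262706 to 141266481, minus strand, mm10), showed the separation plainly. Irf7 stood at 2.04, 2.00 and 1.99 CPM in PLX1X, 1.82, 4.74 and 2.43 in PLX3X_CD0, 2.48, 2.53 and 3.42 in PLX3X_CD30 and 4.04, 5.27 and 3.46 in IR_BMT, against 1.38, 8.67 and 1.68 CPM in NT. NT replicate 2 was thus 5.67-fold above the mean of the other NT libraries and above every treated library, while NT replicates 1 and 3 lay below all libraries of the treated groups. Isg15, the ubiquitin-like protein that interferon-treated cells attach to other proteins (ENSMUSG00000035692, chromosome 4, 156199424 to 156200818, minus strand), stood at 1.85, 1.42 and 0.689 CPM in PLX1X, 1.01, 3.75 and 0.765 in PLX3X_CD0, 1.57, 1.41 and 1.16 in PLX3X_CD30 and 2.08, 2.65 and 2.15 in IR_BMT, against 1.00, 6.59 and 2.19 CPM in NT. NT replicate 2 was 4.13-fold above the mean of the other NT libraries, and PLX3X_CD0 replicate 2 was 4.21-fold above that of its own group. Oas2, which makes the oligoadenylate messenger that activates RNase L, and its relative Oas1b had no counts in NT replicate 1, the shallowest library, and stood at 1.46 and 1.26 CPM in NT replicate 2.

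The cell type markers of these 2 libraries did not move alike. In NT replicate 2 the 12 microglia markers had a median log2 difference of 0.10 from the other NT libraries, and the 6 markers of border-associated macrophages 0.76, all 6 of them highest in that library. The 4 markers of meningeal fibroblasts had a median of 0.71, although NT replicate 3 lay close to it in their summed level, and the 6 markers of thalamic neurons, a sign of dissection, had a median of -0.89. In PLX3X_CD0 replicate 2 all 12 microglia markers were the highest of their group, with a median log2 difference of 0.94, and the 10 general macrophage markers had a median of 1.38. The 3 tested neutrophil markers had a median of 1.29 there, with all 5 listed at a summed level of 1.53 CPM, and the 6 thalamic markers one of 0.31. Markers of choroid plexus, another sign of dissection, summed to 1606 CPM in PLX3X_CD0 replicate 1 and 485 in IR_BMT replicate 1, against at most 28.1 CPM in any other library. The part of these cell types or of dissection in the separation of the members was not tested.

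**Figure D1:**
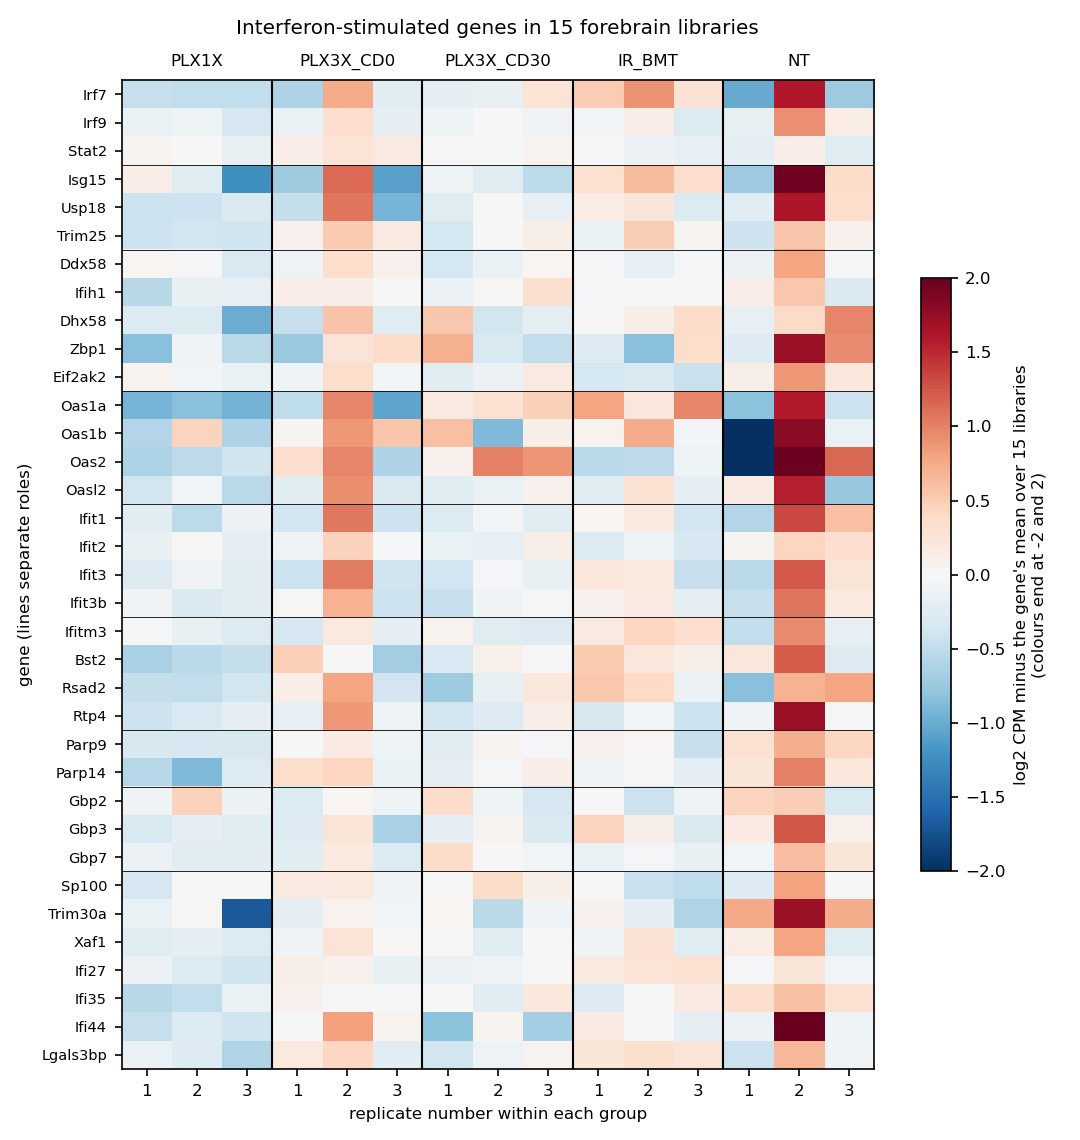
Level of the 35 members (rows, separated by role) in the 15 libraries (columns, by group and replicate), as log2 CPM minus the mean of each gene over all libraries, with colours ending at -2 and 2. NT replicate 2 is red in most rows and is the highest of 15 libraries in 30 of 35 genes, and PLX3X_CD0 replicate 2 is the highest of its group in 30 of 35.

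In PLX1X brains, 9 of 35 members were lower than in NT and none was higher, with 8.12% of all genes tested called lower and 9.97% higher. Of the 35 log2 fold changes 34 were negative, with a median of -0.83. Over all genes tested 55.5% were negative, with a median of -0.04. The 9 were Parp9, Parp14, Ifi35, Trim30a, Ifi27, Bst2, Zbp1, Gbp7 and Ifi44. In 15 members all PLX1X libraries lay below all NT libraries, as they did in 16.1% of all genes tested. Without NT replicate 2, 4 members were lower (Parp9, Parp14, Ifi35 and Trim30a), beside 6.66% of all genes, and none was higher, beside 9.58%. The median of the members was then -0.27, and 5 members changed sign. Sign changes were not counted over all genes, here or in the groups below. The members were themselves high in NT replicate 2, so leaving it out raises their values against NT in part by that choice. Without NT replicate 1, the shallowest library and in no member the highest of NT, 19 members were lower, beside 7.27% of all genes. Without PLX1X replicate 1, 5 members were lower (5.24% of all genes), without PLX1X replicate 2, 4 (5.74%), and without PLX1X replicate 3, 4 (4.94%).

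The pair of ADP-ribosyltransferase genes Parp9 and Parp14, whose proteins modify other proteins and modulate interferon signalling, fell in PLX1X. Parp9 (ENSMUSG00000022906, chromosome 16, 35938470 to 35972605, plus strand) stood at 2.85, 2.84 and 2.83 CPM in PLX1X, against 4.39, 5.90 and 4.77 in NT, a log2 fold change of -0.83 ± 0.17 (SE, adjusted p = 0.00239). All PLX1X libraries lay below all NT libraries, and without NT replicate 2 the change was -0.69 ± 0.19 (SE, adjusted p = 0.0163). Parp14 (ENSMUSG00000034422, chromosome 16, 35832874 to 35871544, minus strand) stood at 1.59, 1.26 and 1.97 CPM in PLX1X, against 2.81, 4.83 and 2.75 in NT, a log2 fold change of -1.11 ± 0.24 (SE, adjusted p = 0.00298). Its groups did not overlap either, and without NT replicate 2 the change was -0.78 ± 0.23 (SE, adjusted p = 0.0277). Parp9, Parp14 and Ifi35 passed the threshold in PLX1X under all 15 settings run.

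Ifi35, a leucine zipper protein that also acts as a danger signal outside cells (ENSMUSG00000010358, chromosome 11, 101448407 to 101458698, plus strand), stood at 1.57, 1.64 and 2.12 CPM in PLX1X, against 2.96, 3.52 and 2.89 in NT. The groups did not overlap, and Ifi35 fell, with a log2 fold change of -0.82 ± 0.19 (SE, adjusted p = 0.00559), or -0.71 ± 0.22 (SE, adjusted p = 0.0296) without NT replicate 2. Trim30a, a tripartite-motif protein that dampens innate signalling in mouse macrophages (ENSMUSG00000030921, chromosome 7, 104409025 to 104465193, minus strand), stood at 0.667, 0.754 and 0.197 CPM in PLX1X, against 1.29, 2.55 and 1.27 in NT. Its log2 fold change was -1.65 ± 0.39 (SE, adjusted p = 0.00571), and without NT replicate 2 it was -1.22 ± 0.41 (SE, adjusted p = 0.0481). The NT libraries other than replicate 2 were still above all PLX1X libraries for both genes.

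Bst2, the tetherin that holds budding virus at the cell surface (ENSMUSG00000046718, chromosome 8, 71534255 to 71537456, minus strand), stood at 2.00, 2.15 and 2.27 CPM in PLX1X, against 3.72, 7.33 and 2.64 in NT, and fell, with a log2 fold change of -1.10 ± 0.33 (SE, adjusted p = 0.0282). Every PLX1X library lay below every NT library, but Bst2 missed the threshold without NT replicate 2 (-0.54 ± 0.28 SE, adjusted p = 0.1995) and without PLX1X replicate 1, 2 or 3 (adjusted p = 0.0957, 0.0789 and 0.0754). Ifi27, a small membrane protein of mitochondria (ENSMUSG00000064215, chromosome 12, 103434211 to 103440239, plus strand), stood at 33.6, 30.2 and 27.7 CPM in PLX1X, against 36.1, 43.5 and 35.2 in NT, a log2 fold change of -0.33 ± 0.09 (SE, adjusted p = 0.0149). This call was lost without NT replicate 2 (-0.22 ± 0.09 SE, adjusted p = 0.104) and without PLX1X replicate 2 or 3 (adjusted p = 0.0530 and 0.0882).

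The remaining calls in PLX1X lay near the threshold. Zbp1, a sensor of Z-form nucleic acid that can trigger cell death, stood at 0.111, 0.222 and 0.148 CPM in PLX1X, against 0.191, 0.892 and 0.498 in NT, with overlapping groups and a log2 fold change of -1.77 ± 0.59 (SE, adjusted p = 0.0449). Gbp7, a guanylate-binding GTPase, stood at 6.22, 5.83 and 5.86 CPM in PLX1X, against 6.48, 10.5 and 8.02 in NT (-0.49 ± 0.17 SE, adjusted p = 0.0473). Ifi44, an interferon-induced GTP-binding protein, stood at 0.519, 0.599 and 0.542 CPM in PLX1X, against 0.667, 3.02 and 0.682 in NT (-1.42 ± 0.48 SE, adjusted p = 0.0475). Ifi44 was the member of these 9 whose value moved most without NT replicate 2, to -0.28 ± 0.38 (SE, adjusted p = 0.669), while Zbp1 came to -1.19 ± 0.66 (SE, adjusted p = 0.246) and Gbp7 to -0.28 ± 0.17 (SE, adjusted p = 0.270). Leaving out any PLX1X library also ended these 3 calls (adjusted p from 0.0676 to 0.165 over the 3 genes), and leaving out NT replicate 3 ended those of Zbp1 (adjusted p = 0.0707) and Gbp7 (adjusted p = 0.0602).

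The core of the ISGF3 response did not pass the test in PLX1X. Stat2, the subunit of that complex with the main activation domain (ENSMUSG00000040033, chromosome 10, 128270559 to 128292849, plus strand), stood at 31.2, 30.3 and 27.2 CPM in PLX1X, against 26.7, 32.9 and 25.4 in NT (0.06 ± 0.09 SE, adjusted p = 0.683), with overlapping groups. Irf9, the DNA-binding subunit of the complex, had a log2 fold change of -0.58 ± 0.22 (SE, adjusted p = 0.0775), and Irf7 one of -0.98 ± 0.60 (SE, adjusted p = 0.298), which was 0.38 ± 0.33 (SE, adjusted p = 0.490) without NT replicate 2. Isg15 had a log2 fold change of -1.32 ± 0.69 (SE, adjusted p = 0.220) with all libraries and -0.32 ± 0.61 (SE, adjusted p = 0.776) without NT replicate 2. Usp18, the protease that removes Isg15 and blocks the interferon receptor (ENSMUSG00000030107, chromosome 6, 121245906 to 121270917, plus strand), stood at 1.72, 1.75 and 1.92 CPM in PLX1X, against 2.00, 7.31 and 3.02 in NT (-1.21 ± 0.51 SE, adjusted p = 0.123). Its groups did not overlap, yet NT replicate 1 lay just above the highest PLX1X library.

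Among the IFIT proteins, which bind viral RNA and block its translation, none passed the test in PLX1X. Ifit1 (ENSMUSG00000034459, chromosome 19, 34640871 to 34650009, plus strand) stood at 4.20, 3.39 and 4.51 CPM in PLX1X, 3.75, 10.3 and 3.66 in PLX3X_CD0, 4.07, 4.72 and 4.19 in PLX3X_CD30 and 5.05, 5.60 and 3.75 in IR_BMT, against 3.24, 12.3 and 7.48 CPM in NT. Ifit3 (ENSMUSG00000074896, chromosome 19, 34583531 to 34588731, plus strand) stood at 12.1, 13.8 and 12.6 CPM in PLX1X, 10.8, 29.5 and 11.0 in PLX3X_CD0, 11.1, 14.3 and 13.2 in PLX3X_CD30 and 17.0, 16.7 and 10.6 in IR_BMT, against 9.96, 34.1 and 17.5 CPM in NT. In both genes replicate 2 of NT and replicate 2 of PLX3X_CD0 were the highest of all 15, and the other libraries of the 5 groups overlapped. The log2 fold changes in PLX1X were -0.96 ± 0.46 (SE, adjusted p = 0.189) for Ifit1 and -0.69 ± 0.47 (SE, adjusted p = 0.357) for Ifit3, and without NT replicate 2 that of Ifit3 was -0.12 ± 0.44 (SE, adjusted p = 0.891).

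The remaining members did not pass the test in PLX1X. The RNA sensors Ddx58 (RIG-I), Ifih1 (MDA5) and Dhx58 (LGP2) had log2 fold changes of -0.38 ± 0.20, -0.45 ± 0.18 and -1.01 ± 0.35 (SE), and Eif2ak2, the kinase PKR that halts translation on double-stranded RNA, -0.49 ± 0.19. The oligoadenylate synthetase genes Oas1a, Oas1b, Oas2 and Oasl2 ranged from -1.84 ± 0.71 in Oas2 to -0.93 ± 0.74 in Oas1b. The other membrane-linked members, Ifitm3, which blocks viral fusion, Rsad2 (viperin) and Rtp4, had -0.40 ± 0.30, -0.90 ± 0.37 and -1.14 ± 0.42. Trim25, the ligase of RIG-I and Isg15, Ifit2, Ifit3b, Gbp2, Gbp3, the nuclear body protein gene Sp100, the apoptosis factor gene Xaf1 and the secreted galectin ligand gene Lgals3bp ranged from -0.86 ± 0.29 in Gbp3 to -0.13 ± 0.23 in Gbp2. Their lowest adjusted p was 0.0517, for Dhx58.

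**Figure D2:**
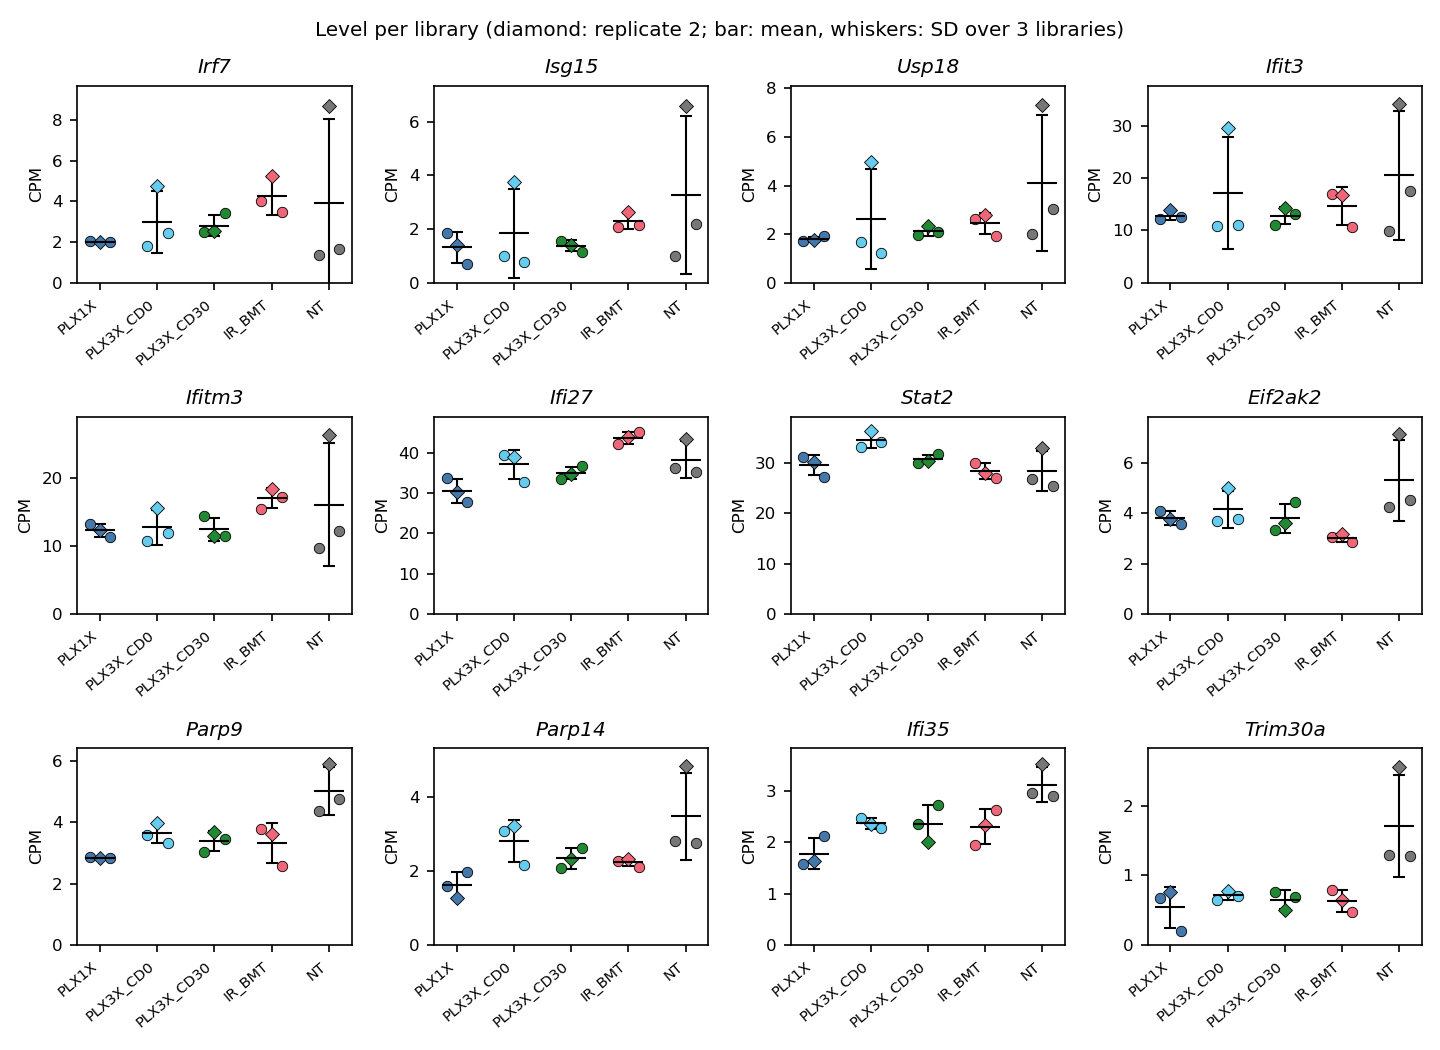
CPM (y axis, from 0) of 12 members in each library by group (x axis). Diamonds mark replicate 2, bars the mean and whiskers the SD over 3 libraries, ending at 0 where they would pass it. Parp9, Parp14, Ifi35 and Trim30a in PLX1X lie below all NT libraries, whereas in Irf7, Isg15, Usp18 and Ifit3 the NT diamond lies far above the other NT points.

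In PLX3X_CD0 brains, 1 of 35 members was higher and 1 lower than in NT, with 12.2% of all genes tested called higher and 9.53% lower. The log2 fold changes were negative in 32 of 35 members, with a median of -0.36, and in 53.5% of all genes, with a median of -0.03. Stat2 was higher, at 33.2, 36.3 and 34.1 CPM in PLX3X_CD0 against 26.7, 32.9 and 25.4 in NT, a log2 fold change of 0.28 ± 0.09 (SE, adjusted p = 0.0221). The groups did not overlap, although PLX3X_CD0 replicate 1 lay just above NT replicate 2. Without NT replicate 2 the change was 0.41 ± 0.08 (SE, adjusted p = 0.00106), but Stat2 missed the threshold without NT replicate 1 (adjusted p = 0.0634), NT replicate 3 (adjusted p = 0.0999) or PLX3X_CD0 replicate 2 (adjusted p = 0.0789), and its log2 fold change was 0.13 (adjusted p = 0.343) with an offset for gene length and GC content.

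Trim30a was lower, at 0.648, 0.776 and 0.709 CPM in PLX3X_CD0 against 1.29, 2.55 and 1.27 in NT, a log2 fold change of -1.27 ± 0.38 (SE, adjusted p = 0.0206). The groups did not overlap, but the call was lost without NT replicate 2 (-0.84 ± 0.40 SE, adjusted p = 0.153) and without PLX3X_CD0 replicate 1 or 3 (adjusted p = 0.0673 and 0.0612). In 3 members, Trim30a, Parp9 and Ifi35, all PLX3X_CD0 libraries lay below all NT libraries, as they did in 16.7% of all genes tested. Without NT replicate 2, Stat2 alone was called higher, beside 11.4% of all genes, and no member lower, beside 8.58%. The median of the members was then 0.09, and 20 of 35 members changed sign. For Irf7 the log2 fold change was then 0.95 ± 0.33 (SE, adjusted p = 0.0516), and its level in PLX3X_CD0 was itself highest in replicate 2. Without NT replicate 1, 4 members were lower, beside 7.52% of all genes, and without PLX3X_CD0 replicate 2, 4 members, beside 7.09%.

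The best known targets of the pathway did not pass the test in PLX3X_CD0. Irf7 had a log2 fold change of -0.41 ± 0.58 (SE, adjusted p = 0.683), Isg15 one of -0.86 ± 0.67 (SE, adjusted p = 0.417) and Usp18, at 1.68, 4.99 and 1.21 CPM in PLX3X_CD0 against 2.00, 7.31 and 3.02 in NT, one of -0.67 ± 0.49 (SE, adjusted p = 0.387). Ifit1 came to -0.41 ± 0.45 (SE, adjusted p = 0.589) and Ifit3 to -0.28 ± 0.46 (SE, adjusted p = 0.734). Bst2 stood at 4.42, 3.18 and 1.94 CPM in PLX3X_CD0 against 3.72, 7.33 and 2.64 in NT (-0.52 ± 0.32 SE, adjusted p = 0.270), and Ifi27 at 39.5, 38.9 and 32.8 CPM in PLX3X_CD0 against 36.1, 43.5 and 35.2 in NT (-0.05 ± 0.09 SE, adjusted p = 0.769). In all of these genes the groups overlapped.

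In PLX3X_CD30 brains, 1 of 35 members was lower and none higher, with 1.84% of all genes tested called lower and 4.74% higher. The member was again Trim30a, at 0.757, 0.496 and 0.694 CPM in PLX3X_CD30 against 1.29, 2.55 and 1.27 in NT, a log2 fold change of -1.40 ± 0.39 (SE, adjusted p = 0.0361). It missed the threshold without NT replicate 2 (-0.97 ± 0.41 SE, adjusted p = 0.165) and without PLX3X_CD30 replicate 1, 2 or 3 (adjusted p = 0.0779, 0.144 and 0.102). Without NT replicate 1, 3 members were lower, beside 1.34% of all genes, and without NT replicate 3, 2 members, beside 2.41%. With all libraries, negative values made up 34 of 35, with a median of -0.49, and 53.7% over all genes, with a median of -0.02. In 5 members (Trim30a, Parp9, Parp14, Ifi35 and Gbp3) the groups did not overlap, against 11.1% of all genes tested. Parp9, at 3.03, 3.68 and 3.47 CPM in PLX3X_CD30 against 4.39, 5.90 and 4.77 in NT, came to -0.57 ± 0.17 (SE, adjusted p = 0.0533).

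Without NT replicate 2, no member was called in PLX3X_CD30 by edgeR, beside 1.96% of all genes called lower and 5.43% higher. An unadjusted p below 0.05 was reached by 4 of 35, with no share over all genes taken to set beside it. The median of the members was then -0.08, and 11 members changed sign. Stat2 stood at 30.0, 30.5 and 31.7 CPM in PLX3X_CD30 (0.12 ± 0.09 SE, adjusted p = 0.474 with all libraries), Usp18 at 1.98, 2.35 and 2.08 (-0.96 ± 0.51 SE, adjusted p = 0.3004), Bst2 at 2.56, 3.39 and 3.16 (-0.59 ± 0.32 SE, adjusted p = 0.312) and Ifi27 at 33.6, 34.7 and 36.6 (-0.13 ± 0.09 SE, adjusted p = 0.423). All 4 genes overlapped between the groups. With all libraries, Irf7 had a log2 fold change of -0.50 ± 0.59 (SE, adjusted p = 0.686), Isg15 one of -1.27 ± 0.69 (SE, adjusted p = 0.321), Ifit1 one of -0.85 ± 0.46 (SE, adjusted p = 0.322) and Ifit3 one of -0.69 ± 0.47 (SE, adjusted p = 0.445), at the levels given above. For Irf7 the value without NT replicate 2 was 0.86 ± 0.33 (SE, adjusted p = 0.135).

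In IR_BMT brains, 5 of 35 members were lower than in NT and none higher, with 15.4% of all genes tested called lower and 15.1% higher. They were Eif2ak2, Ifit2, Trim30a, Parp9 and Parp14. Without NT replicate 1, 12 members were lower (13.4% of all genes), without NT replicate 3, 9 (14.9%), and without IR_BMT replicate 3, 3 (11.3%). With all libraries 29 of 35 log2 fold changes were negative, with a median of -0.44. Over all genes 54.5% were negative, with a median of -0.05. Eif2ak2 (ENSMUSG00000024079, chromosome 17, 78852564 to 78882573, minus strand) stood at 3.06, 3.18 and 2.86 CPM in IR_BMT, against 4.24, 7.18 and 4.55 in NT, a log2 fold change of -0.82 ± 0.20 (SE, adjusted p = 0.00361). All IR_BMT libraries lay below all NT libraries, the change without NT replicate 2 was -0.54 ± 0.18 (SE, adjusted p = 0.0381), and Eif2ak2 passed under all 15 settings run. Its other groups stood at 4.11, 3.77 and 3.57 CPM in PLX1X, 3.71, 5.01 and 3.77 in PLX3X_CD0 and 3.34, 3.63 and 4.44 in PLX3X_CD30, each library of which lay above every IR_BMT library.

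Ifit2 (ENSMUSG00000045932, chromosome 19, 34550694 to 34576419, plus strand) stood at 9.62, 10.8 and 9.29 CPM in IR_BMT, against 12.0, 15.6 and 14.7 in NT, a log2 fold change of -0.51 ± 0.14 (SE, adjusted p = 0.00816). The groups did not overlap, and the change without NT replicate 2 was -0.43 ± 0.15 (SE, adjusted p = 0.0426), but with the offset for length and GC content it was -0.30 (adjusted p = 0.125). Trim30a stood at 0.788, 0.641 and 0.472 CPM in IR_BMT, against 1.29, 2.55 and 1.27 in NT (-1.44 ± 0.39 SE, adjusted p = 0.00856), and came to -1.01 ± 0.41 (SE, adjusted p = 0.0770) without NT replicate 2. Parp9 stood at 3.78, 3.62 and 2.57 CPM in IR_BMT, against 4.39, 5.90 and 4.77 in NT (-0.60 ± 0.17 SE, adjusted p = 0.0122), and came to -0.46 ± 0.19 (SE, adjusted p = 0.0740) without NT replicate 2 and to an adjusted p of 0.0840 without IR_BMT replicate 3. For Trim30a and Parp9 the groups did not overlap, and the remaining NT libraries lay above every IR_BMT library.

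Parp14 stood at 2.27, 2.31 and 2.10 CPM in IR_BMT, against 2.81, 4.83 and 2.75 in NT (-0.64 ± 0.24 SE, adjusted p = 0.0469), came to -0.31 ± 0.23 (SE, adjusted p = 0.352) without NT replicate 2, and missed the threshold without IR_BMT replicate 1, 2 or 3 (adjusted p = 0.0934, 0.0966 and 0.134). In 6 members, these 5 and Ifi35, all IR_BMT libraries lay below all NT libraries, against 21.2% of all genes tested. The PLX1X, PLX3X_CD0, PLX3X_CD30 and IR_BMT values above share the same 3 NT libraries, so that Trim30a, lower in all 4, was set each time against the same NT values.

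Without NT replicate 2, 3 members were higher in IR_BMT, Irf7, Ifitm3 and Ifi27, beside 14.3% of all genes, and 2 were lower, Eif2ak2 and Ifit2, beside 12.9%. The members were themselves high in the library left out. The higher calls of this fit follow in part from that choice and are no separate test. Irf7 came to 1.46 ± 0.33 (SE, adjusted p = 0.00334), against 0.10 ± 0.58 (SE, adjusted p = 0.924) with all libraries. Ifitm3 (ENSMUSG00000025492, chromosome 7, 141009586 to 141010770, minus strand) stood at 15.5, 18.5 and 17.2 CPM in IR_BMT, against 9.72, 26.5 and 12.2 in NT, and came to 0.63 ± 0.16 (SE, adjusted p = 0.00590), against 0.07 ± 0.30 (SE, adjusted p = 0.894) with all libraries. Ifi27 stood at 42.1, 44.0 and 45.1 CPM in IR_BMT, against 36.1, 43.5 and 35.2 in NT, and came to 0.30 ± 0.09 (SE, adjusted p = 0.0168), against 0.19 ± 0.09 (SE, adjusted p = 0.114) with all libraries. In these 3 genes every IR_BMT library lay above NT replicates 1 and 3. The median of all 35 members was then 0.01, 12 changed sign, and 2 of the 5 calls were kept.

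The other leading members overlapped between IR_BMT and NT. Stat2 stood at 30.1, 27.9 and 27.0 CPM in IR_BMT (-0.0029 ± 0.09 SE, adjusted p = 0.985), Usp18 at 2.62, 2.79 and 1.94 (-0.77 ± 0.51 SE, adjusted p = 0.284) and Bst2 at 4.57, 3.71 and 3.44 (-0.23 ± 0.32 SE, adjusted p = 0.640), set against the NT values above. Isg15 came to -0.54 ± 0.67 (SE, adjusted p = 0.599), Ifit1 to -0.71 ± 0.46 (SE, adjusted p = 0.287) and Ifit3 to -0.49 ± 0.47 (SE, adjusted p = 0.479). Oas1a, at 1.26, 0.836 and 1.44 CPM in IR_BMT against 0.381, 2.23 and 0.516 in NT, came to 0.14 ± 0.57 (SE, adjusted p = 0.886) with all libraries and 1.35 ± 0.51 (SE, adjusted p = 0.0571) without NT replicate 2.

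**Figure D3:**
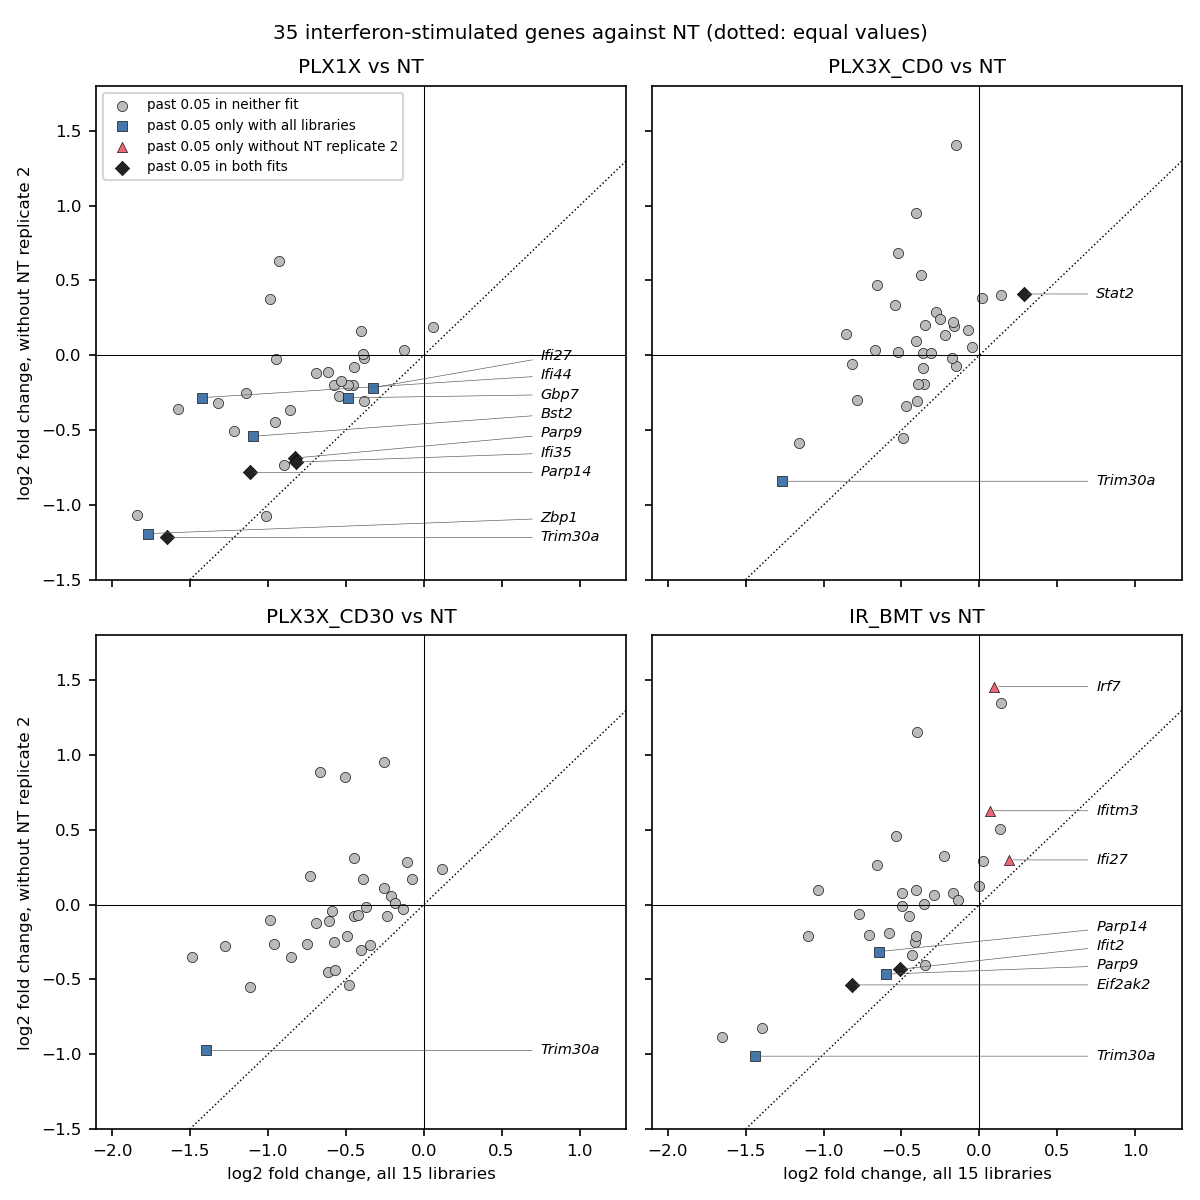
Log2 fold change of each of the 35 members against NT with all 15 libraries (x axis) and without NT replicate 2 (y axis), in 4 panels by treated group, with the symbol showing in which of the fits the adjusted p was below 0.05. Most points lie above the dotted line of equal values, and the median moves to -0.27 in PLX1X, 0.09 in PLX3X_CD0, -0.08 in PLX3X_CD30 and 0.01 in IR_BMT.

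Comparisons between the treated groups do not use the NT libraries as reference, though all groups share the estimate of spread. In PLX3X_CD0 against PLX1X, 34 of 35 log2 fold changes were positive and 1 negative, where 48.7% of all genes were negative. The median was 0.42 against 0.01 over all genes, but no member passed edgeR, where 2.46% of all genes did. An unadjusted p below 0.05 was reached by 5 members, but no share over all genes was taken to set beside this count. DESeq2 called 2 of the 32 members it tested, beside 1066 of 16833 genes. Parp14, at 3.06, 3.20 and 2.17 CPM in PLX3X_CD0 against 1.59, 1.26 and 1.97 in PLX1X, came to 0.81 ± 0.24 (SE, adjusted p = 0.0810), and Trim25, at 6.44, 8.71 and 6.87 CPM in PLX3X_CD0 against 4.48, 4.70 and 4.58 in PLX1X, to 0.68 ± 0.21 (SE, adjusted p = 0.0942). In both genes the groups did not overlap, with every PLX3X_CD0 library higher, as in 9 of 35 members and 13.4% of all genes tested. Stat2 came to 0.22 ± 0.08 (SE, adjusted p = 0.193) and Ifi27 to 0.28 ± 0.09 (SE, adjusted p = 0.107). Without PLX3X_CD0 replicate 2 the median was 0.17.

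In PLX3X_CD30 against PLX3X_CD0 no member passed edgeR, where 3.8% of all genes did, and none had an unadjusted p below 0.05. DESeq2 called 0, beside 1199 of 20733 genes. The median of the members was -0.13 against 0.0001 over all genes, and 0.02 without PLX3X_CD0 replicate 2. In IR_BMT against PLX3X_CD0 1 member passed, where 21.5% of all genes did. It was Stat2, at 30.1, 27.9 and 27.0 CPM in IR_BMT against 33.2, 36.3 and 34.1 in PLX3X_CD0, a log2 fold change of -0.29 ± 0.09 (SE, adjusted p = 0.0208). The groups did not overlap, but Stat2 missed the threshold without PLX3X_CD0 replicate 2 (adjusted p = 0.0837), IR_BMT replicate 2 (adjusted p = 0.0731) or IR_BMT replicate 3 (adjusted p = 0.0989). Without PLX3X_CD0 replicate 1, 2 members were called, both lower, beside 8.46% of all genes.

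A fit without replicate 2 of both NT and PLX3X_CD0, chosen after seeing the data, called 7 members in IR_BMT against PLX3X_CD0. The members were themselves high in both libraries left out. The calls of this fit follow in part from that choice and are no separate test. Stat2 was lower, at -0.26 ± 0.08 (adjusted p = 0.0223). Higher were Irf7 at 0.98 ± 0.23 (adjusted p = 0.00660), Isg15 at 1.35 ± 0.37 (adjusted p = 0.0164), Oas1a at 1.54 ± 0.37 (adjusted p = 0.00692), Ifitm3 at 0.57 ± 0.13 (adjusted p = 0.00482), Usp18 at 0.74 ± 0.25 (adjusted p = 0.0482) and Ifi27 at 0.26 ± 0.09 (adjusted p = 0.0472) (log2 fold change ± SE), 6 of 35 members beside 7.48% of all genes. The same fit called 5 members higher in IR_BMT than in NT, Irf7, Oas1a, Ifitm3, Ifi27 and Lgals3bp, beside 13.8% of all genes, and 2 lower, Eif2ak2 and Ifit2, beside 13.5%. In PLX3X_CD30 against NT it called Irf7 higher, at 0.87 ± 0.25 (adjusted p = 0.0357), beside 6.64% of all genes. In PLX3X_CD0 against NT it called Stat2 higher and Usp18 lower, beside 2411 and 1514 of 22245 genes. Usp18 came to -0.82 ± 0.27 (SE, adjusted p = 0.045) there and to -0.08 ± 0.25 (SE, adjusted p = 0.857) in IR_BMT against NT. Without PLX3X_CD0 replicate 2 alone, no member was called between IR_BMT and PLX3X_CD0 by edgeR, beside 3899 of 22440 genes. An unadjusted p below 0.05 was reached by 4 members, with no share over all genes taken to set beside it. In IR_BMT against PLX3X_CD30 1 member passed, where 16.5% of all genes did. Ifi27 stood at 42.1, 44.0 and 45.1 CPM in IR_BMT against 33.6, 34.7 and 36.6 in PLX3X_CD30, with no overlap and a log2 fold change of 0.32 ± 0.09 (SE, adjusted p = 0.0173). It missed the threshold without PLX3X_CD30 replicate 1 or 2 (adjusted p = 0.0716 and 0.0591), without IR_BMT replicate 2 or 3 (adjusted p = 0.0599 and 0.0617), and with the offset for length and GC content (0.19, adjusted p = 0.267). Irf7, Isg15, Ifitm3, Bst2 and Lgals3bp had no overlap either, each higher in all IR_BMT libraries, so that 6 of 35 members stood so beside 18.5% of all genes tested. Their values other than that of Ifi27 did not pass, with 0.60 ± 0.59 (SE, adjusted p = 0.562) for Irf7, 0.74 ± 0.70 (SE, adjusted p = 0.545) for Isg15 and 0.36 ± 0.32 (SE, adjusted p = 0.510) for Bst2.

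Ligands, receptors, kinases, sensors, regulators and further induced genes of the pathway made up a list of 89 genes outside the members, of which 78 were tested and 42 of these are themselves induced by interferon. Of the 78 tested, 4 were higher and 16 lower in PLX1X, and 4 higher and 15 lower in PLX3X_CD0. In PLX3X_CD30 4 were higher and 5 lower, and in IR_BMT 4 higher and 15 lower. Of all genes tested, 9.97% were higher and 8.12% lower in PLX1X, and 12.2% and 9.53% in PLX3X_CD0. These shares were 4.74% and 1.84% in PLX3X_CD30, and 15.1% and 15.4% in IR_BMT. The 6 listed ligand genes, Ifnb1, Ifng, Ifna2, Ifna4, Ifnk and Ifne, were too low to test: their summed level did not exceed 0.183 CPM in any library and was 0 in every PLX3X_CD0, IR_BMT and NT library. A count of 0 allows up to 3 counts per gene and library, a limit that covers counting error only and takes counts as independent. Of counts from 1 to 4, 70.6 to 74.7% were even in each library, so counts may not be independent and the limit may be higher. Ifnar1, the receptor chain for type I interferon, stood at 46.3, 47.4 and 46.7 CPM in PLX1X, 41.8, 44.4 and 46.2 in PLX3X_CD0, 45.8, 47.2 and 42.9 in PLX3X_CD30 and 41.2, 41.2 and 37.3 in IR_BMT, against 44.6, 42.8 and 43.9 CPM in NT. No comparison of Ifnar1 with NT passed the test. Ifngr1, the receptor chain for interferon gamma, was lower in all 4 treated groups, with log2 fold changes of -0.56 ± 0.08 (SE, adjusted p = 8.41e-05) in PLX1X, -0.67 ± 0.08 (SE, adjusted p = 7.90e-06) in PLX3X_CD0, -0.38 ± 0.08 (SE, adjusted p = 0.00774) in PLX3X_CD30 and -0.57 ± 0.08 (SE, adjusted p = 3.41e-05) in IR_BMT.

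Jak1, the kinase shared by these receptors, was higher in all 4 treated groups, with log2 fold changes of 0.34 ± 0.06 (SE, adjusted p = 0.000359) in PLX1X, 0.43 ± 0.06 (SE, adjusted p = 1.82e-05) in PLX3X_CD0, 0.30 ± 0.06 (SE, adjusted p = 0.00363) in PLX3X_CD30 and 0.27 ± 0.06 (SE, adjusted p = 0.00126) in IR_BMT.

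Transcription factors and sensors expressed by macrophages separated the groups in another way. Irf8, a factor that macrophages need, stood at 1.35, 2.66 and 1.48 CPM in PLX1X, 1.99, 1.46 and 1.94 in PLX3X_CD0, 5.53, 5.14 and 4.80 in PLX3X_CD30 and 7.03, 6.07 and 6.09 in IR_BMT, against 13.3, 11.6 and 12.6 CPM in NT. All treated libraries lay below all NT libraries, with log2 fold changes of -2.77 ± 0.20 (SE, adjusted p = 4.08e-08) in PLX1X, -2.80 ± 0.20 (SE, adjusted p = 2.24e-08) in PLX3X_CD0, -1.27 ± 0.19 (SE, adjusted p = 0.000653) in PLX3X_CD30 and -0.97 ± 0.19 (SE, adjusted p = 0.000604) in IR_BMT. Sting1, the adaptor of cytosolic DNA sensing, stood at 1.17, 1.11 and 0.640 CPM in PLX1X, 0.709, 0.757 and 0.579 in PLX3X_CD0, 2.79, 2.72 and 2.93 in PLX3X_CD30 and 2.43, 2.01 and 2.13 in IR_BMT, against 4.24, 5.00 and 5.07 CPM in NT, and was lower in all 4, though in PLX3X_CD30 it missed the threshold without NT replicate 2 (-0.73 ± 0.23 SE, adjusted p = 0.0604). Adar, the editor of double-stranded RNA, did not share the pattern of Irf8 and Sting1. Its level was higher, with 0.32 ± 0.05 (SE, adjusted p = 0.000242) in PLX1X, 0.50 ± 0.05 (SE, adjusted p = 1.24e-06) in PLX3X_CD0, 0.21 ± 0.05 (SE, adjusted p = 0.0178) in PLX3X_CD30 and 0.34 ± 0.05 (SE, adjusted p = 5.69e-05) in IR_BMT. Irf5, which drives inflammatory genes, was lower like Irf8 and Sting1, with -3.12 ± 0.23 (SE, adjusted p = 4.12e-08) in PLX1X, -2.84 ± 0.22 (SE, adjusted p = 6.22e-08) in PLX3X_CD0, -1.45 ± 0.21 (SE, adjusted p = 0.000588) in PLX3X_CD30 and -1.14 ± 0.21 (SE, adjusted p = 0.000384) in IR_BMT. In neither Irf8 nor Sting1 did NT replicate 2 stand apart from the other NT libraries.

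The summed level of the 12 microglia markers was likewise lowest in PLX1X and PLX3X_CD0. It ran from 46.9 to 75.7 CPM in PLX1X, 41.0 to 78.9 in PLX3X_CD0, 213 to 226 in PLX3X_CD30 and 220 to 248 in IR_BMT, against 500 to 596 CPM in NT, and no marker of the list was at 0 in all libraries of a group. Of the 12, 11 were lower in PLX1X, 11 in PLX3X_CD0, 9 in PLX3X_CD30 and 9 in IR_BMT, and none was higher. Of all genes tested, 8.12%, 9.53%, 1.84% and 15.4% were lower in that order. The 10 general macrophage markers summed to 17.4 to 48.4 CPM in PLX1X, 13.6 to 35.1 in PLX3X_CD0, 187 to 201 in PLX3X_CD30 and 192 to 220 in IR_BMT, against 326 to 402 in NT. The defining markers of brain tissue were detected in every group: 6 neuronal markers summed to 7729 to 9425 CPM in the treated libraries, against 6360 to 7234 in NT, and 6 oligodendrocyte markers to 5381 to 6982 CPM in the treated libraries, against 7456 to 9158 in NT. Both lists thus separated the treated libraries from NT without overlap, as the microglia and general macrophage lists did. The 6 border-associated macrophage markers overlapped NT in IR_BMT, with sums of 11.78 to 13.37 CPM against 12.49 to 21.25 in NT. The 5 markers of engrafted bone marrow-derived macrophages overlapped NT (17.63 to 26.55 CPM) in PLX3X_CD30 (21.12 to 45.85) and in IR_BMT (18.08 to 21.23). The part of these lists in the lower members was not tested. Between PLX3X_CD30 and PLX3X_CD0, Irf8 came to 1.52 ± 0.20 (SE, adjusted p = 0.000135) and Sting1 to 2.04 ± 0.22 (SE, adjusted p = 1.93e-05). No member was called there, where 3.8% of all genes were, and the SE was 0.59 for Irf7 and 0.70 for Isg15. Whether the members followed the macrophage genes was not tested.

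**Figure D4:**
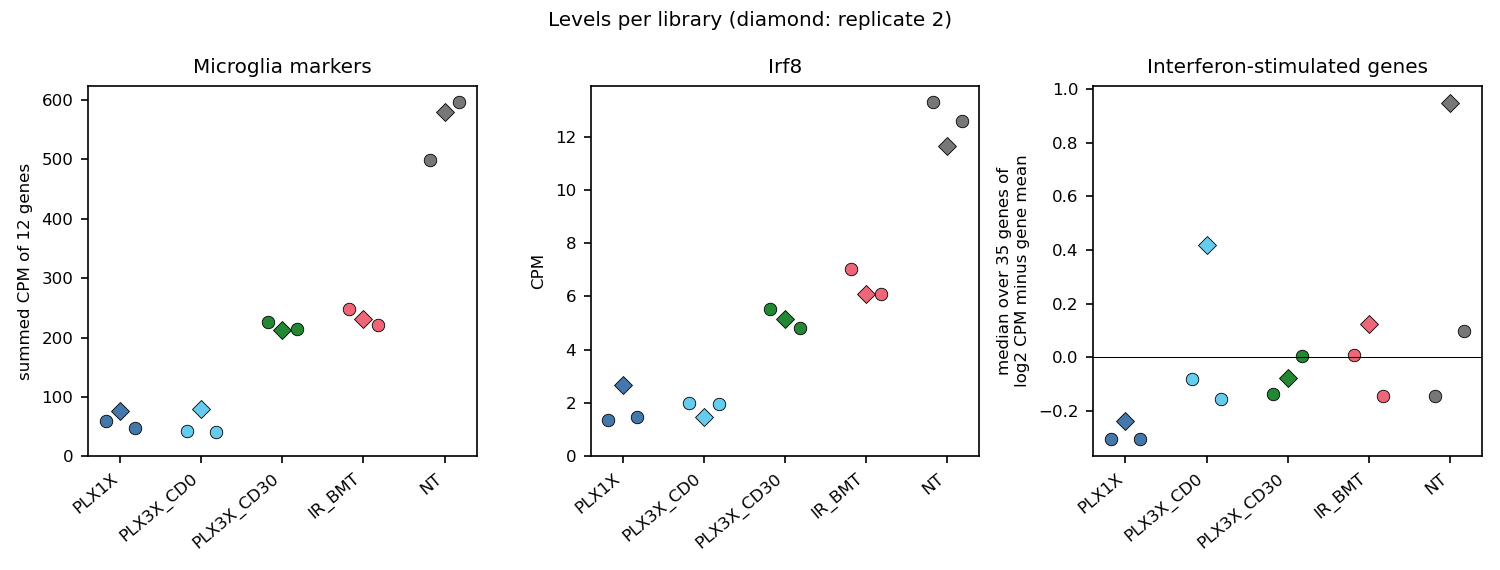
Summed CPM of the 12 microglia markers (left), CPM of Irf8 (middle) and the median over the 35 members of log2 CPM minus the mean of each gene (right), for each library by group, with diamonds for replicate 2. In the first 2 panels all treated libraries lie below the NT libraries and PLX1X and PLX3X_CD0 lie below PLX3X_CD30 and IR_BMT, whereas in the right panel NT replicate 2 lies at 0.95 and the other NT libraries at -0.15 and 0.10.

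Of the 42 tested genes of the list that interferon induces, 9 were lower in PLX1X, 5 in PLX3X_CD0, 0 in PLX3X_CD30 and 5 in IR_BMT. None was higher. Of all genes tested, 8.12%, 9.53%, 1.84% and 15.4% were lower in that order, and 9.97%, 12.2%, 4.74% and 15.1% higher. Median log2 fold changes of the 42 were -0.53, -0.24, -0.33 and -0.27, against -0.04, -0.03, -0.02 and -0.05 over all genes. B2m, the light chain of MHC class I, was lower, with -0.60 ± 0.10 (SE, adjusted p = 0.000365) in PLX1X, -0.76 ± 0.10 (SE, adjusted p = 2.58e-05) in PLX3X_CD0 and -0.39 ± 0.10 (SE, adjusted p = 0.00510) in IR_BMT. Trim30d was lower with -2.13 ± 0.49 (SE, adjusted p = 0.00496) in PLX1X, -1.63 ± 0.47 (SE, adjusted p = 0.0175) in PLX3X_CD0 and -2.55 ± 0.53 (SE, adjusted p = 0.00113) in IR_BMT, and Slfn8 with -2.14 ± 0.43 (SE, adjusted p = 0.00190) in PLX1X, -1.83 ± 0.42 (SE, adjusted p = 0.00373) in PLX3X_CD0 and -1.11 ± 0.41 (SE, adjusted p = 0.0491) in IR_BMT. Without NT replicate 2, Trim30d missed the threshold in PLX3X_CD0 (-1.20 ± 0.52 SE, adjusted p = 0.121) and Slfn8 in IR_BMT (-0.94 ± 0.47 SE, adjusted p = 0.149). NT replicate 2 was the highest NT library in 35 of these 42 genes, with 10 of them more than 2-fold above the other NT libraries, so the separation of that library was not limited to the members. Without it, 4 of the 42 were lower and 2 higher in PLX1X, and 3 lower and 2 higher in PLX3X_CD0. In PLX3X_CD30 0 were then lower and 1 higher, and in IR_BMT 2 lower and 3 higher. Of all genes, 6.66%, 8.58%, 1.96% and 12.9% were then lower in that order, and 9.58%, 11.4%, 5.43% and 14.3% higher. Most of the 42 were themselves high in NT replicate 2. The higher calls without it follow in part from leaving it out and are no separate test. Of the 3 then higher in IR_BMT, Oas1c had the smallest adjusted p, at 1.36 ± 0.35 (SE, adjusted p = 0.00717). It was also higher in PLX1X (1.37 ± 0.35 SE, adjusted p = 0.0111) and PLX3X_CD0 (1.29 ± 0.35 SE, adjusted p = 0.0130). The others were Psmb9, a subunit of the immunoproteasome, at 1.02 ± 0.33 (SE, adjusted p = 0.0265), and Tap1, the peptide transporter, at 0.82 ± 0.28 (SE, adjusted p = 0.0408). In the same fit B2m was lower in IR_BMT (-0.29 ± 0.10 SE, adjusted p = 0.0335). Psmb8 was not called (0.48 ± 0.36 SE, adjusted p = 0.362).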

How the data were processed

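Bulk RNA-seq of mouse forebrain was analysed in 15 libraries. The authors deposited whole-number read counts per gene, and beside them CPM, each count scaled by its own library total, which was not used further. The submitters' processing notes name DRAGEN, DESeq2 and mm10. For versions, gene annotation and strand mode, values were not given in the sources used here. Of counts from 1 to 4, 70.6 to 74.7% were even in each library. No 2 replicates agreed within sampling noise (chi-square per degree of freedom 3.74 to 24.2). Of 55774 rows, 287 repeats with identical counts were removed, leaving 55487 gene identifiers, of which 55141 were found in the GENCODE M21 annotation used for positions.

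Counts were scaled by TMM, filtered with filterByExpr (21780 genes kept) and fitted by group with robust quasi-likelihood tests in edgeR 4.0.16 (R 4.3.3, limma 3.58.1). The biological coefficient of variation was 12.1%. The SE is the log2 fold change over the square root of F. Alternatives were DESeq2 1.42.0, RLE factors, other filters (none, or CPM of 1 in 3 libraries), only the 6 libraries compared, an offset for length and GC content (loess, span 0.3, available for 99.9% of genes), the replicate number as a block, and each library left out. The code was tested on simulated data.

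Values in every library were given for up to 6 called members per comparison with NT, up to 4 per comparison between treated groups, and always for Isg15, Ifit1, Ifit3, Irf7, Stat2, Usp18, Bst2 and Ifi27. The members, the lists and this rule were chosen with earlier results of these data known.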

Additional observations from a re-analysis of the deposited data

How the results depend on the processing

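The number of members called in PLX1X against NT ran from 4 to 19 when single libraries were left out (9 with all). It ran from 1 to 4 in PLX3X_CD0 against NT, 0 to 3 in PLX3X_CD30 against NT and 3 to 12 in IR_BMT against NT. Between treated groups it ran from 0 to 2 in IR_BMT against PLX3X_CD0 and from 0 to 1 in IR_BMT against PLX3X_CD30. It was 0 throughout in PLX3X_CD0 against PLX1X and in PLX3X_CD30 against PLX3X_CD0. Over all genes, these fits called 2696 to 3932 in PLX1X and 3499 to 5114 in PLX3X_CD0 against NT. They called 608 to 1714 in PLX3X_CD30 and 5097 to 6827 in IR_BMT against NT. Between treated groups they called 3029 to 4441 in IR_BMT against PLX3X_CD0 and 1975 to 3526 in IR_BMT against PLX3X_CD30. The ranges were 150 to 289 in PLX3X_CD0 against PLX1X and 384 to 563 in PLX3X_CD30 against PLX3X_CD0. From 22319 to 22520 genes were tested. No filter on low counts gave 27 members in PLX1X, 6 in PLX3X_CD0, 12 in PLX3X_CD30 and 15 in IR_BMT against NT. Beside them stood 4211, 5003, 2034 and 6612 of 40275 genes, against 3939, 4732, 1432 and 6658 of 21780 with the filter. It gave 6 in PLX3X_CD0 against PLX1X and 2 in PLX3X_CD30 against PLX3X_CD0, beside 1186 and 1395 of 40275 genes. It gave 3 in IR_BMT against PLX3X_CD0 and 3 in IR_BMT against PLX3X_CD30, beside 4742 and 3736 of 40275 genes. The cause was not tested, but the prior degrees of freedom of the median gene were infinite in that fit and 8.71 with the filter. Only the 6 libraries compared, a fit with fewer samples, gave 3, 1, 0 and 3 members against NT in the same order of groups. Calls over all genes were then 2143 of 20640, 2601 of 21420, 359 of 20545 and 4721 of 20283. Between treated groups this fit gave 1 member in PLX3X_CD0 against PLX1X, beside 759 of 20633 genes. It gave 3 in IR_BMT against PLX3X_CD0 (4945 of 20221 genes) and 5 in IR_BMT against PLX3X_CD30 (4860 of 19892). DESeq2 called 13 in PLX1X, 4 in PLX3X_CD0, 3 in PLX3X_CD30 and 6 in IR_BMT against NT. Beside them stood 4440 of 21513, 5072 of 22289, 2115 of 16833 and 6825 of 22289 genes. It called 2 in PLX3X_CD0 against PLX1X (1066 of 16833 genes) and 2 in IR_BMT against PLX3X_CD0 (5106 of 19174). The stricter filter, with 31 members tested, gave 10 in PLX1X, 3 in PLX3X_CD0, 2 in PLX3X_CD30 and 7 in IR_BMT against NT. Beside them stood 3794, 4583, 1577 and 6578 of 16514 genes. The fit without replicate 2 of NT and of PLX3X_CD0, chosen after seeing the data, gave 3 in PLX1X against NT and 7 in IR_BMT against PLX3X_CD0. Beside them stood 3813 and 4028 of 22245 genes. In IR_BMT against NT it gave 5 higher and 2 lower, beside 6077 genes, where all libraries gave 0 higher and 5 lower. In PLX3X_CD30 against NT it gave 1 higher and 0 lower, beside 1916 genes, where all libraries gave 0 higher and 1 lower. For these settings the cause was not tested. Members called with all libraries kept their sign under these settings. In the last fit, however, Irf7 was called higher in PLX3X_CD30 than in NT (log2 fold change 0.87, against -0.50 with all libraries) and Usp18 higher in IR_BMT than in PLX3X_CD0 (0.74, against -0.10).

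The offset for length and GC content gave 13 members in PLX1X and 2 in PLX3X_CD30 against NT, beside 3913 and 1343 of 21748 genes. It gave 0 in IR_BMT against PLX3X_CD30, beside 1244 genes. It also moved the share of higher genes among all genes called. Against NT the share was 47.9% (55.1% without the offset) in PLX1X and 42.6% (56.1%) in PLX3X_CD0. It was 59.1% (72.1%) in PLX3X_CD30 and 40.6% (49.5%) in IR_BMT against NT. Between treated groups it was 43.5% (72.8%) in PLX3X_CD0 against PLX1X and 76.6% (49.2%) in PLX3X_CD30 against PLX3X_CD0. It was 52.6% (46.8%) in IR_BMT against PLX3X_CD0 and 32.4% (46.2%) in IR_BMT against PLX3X_CD30.

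The replicate block gave 12, 3, 1 and 6 members in PLX1X, PLX3X_CD0, PLX3X_CD30 and IR_BMT against NT. Beside them stood 3833, 4575, 1241 and 6517 of 21780 genes. It gave 1 in PLX3X_CD0 against PLX1X and 2 in IR_BMT against PLX3X_CD0, beside 454 and 4517 genes. It gave 0 in PLX3X_CD30 against PLX3X_CD0 and 1 in IR_BMT against PLX3X_CD30, beside 754 and 3422 genes. Same-numbered libraries correlated from -0.09 to 0.23 in their deviations from the group means, and in no comparison did all 3 numbers exceed 0.1. Of the 6 libraries of a comparison, 0 to 5 lay closest to the library of their own number, with 5 in PLX3X_CD30 against NT. With 3 libraries a group this check cannot decide whether the numbers pair the samples or mark a shared batch, and the labels do not say.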
